A study of Mus musculus with 6 samples.

Results

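The genes described here encode 10 potassium channel subunits of the heart, namely Kcnj2, Kcnj3, Kcnj5, Kcnj8, Kcnj11, Kcnd2, Kcnd3, Kcnq1, Kcnh2 and Kcne3. They were found by symbol among the 52550 Ensembl genes of the count tables, and all 10 were present. The RNA came from heart muscle cells of mice at postnatal day 1, sorted with magnetic beads, grown for 48 hours with horse and fetal bovine serum and then held for 24 hours in medium lacking serum. The 3 GR-cKO libraries came from mice in which the glucocorticoid receptor was removed in cardiomyocytes, and the 3 control libraries (ctrl in the labels) came from control mice treated the same way in culture. The labels give no strain, sex, Cre driver or deleted exon, and do not say whether replicates were separate animals or litters, so the p-values below measure only the spread between these libraries. Members were chosen by name with the GR-cKO to control contrast already known (Kcne3 and Kcnj3 were among its largest changes). Their fold changes are therefore given as a description, without p-values.

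Potassium channels let potassium leave the cell and so repolarise it after each beat and hold the resting potential between beats. Each channel is built from pore-forming alpha subunits, with accessory subunits that alter gating, trafficking or sensitivity to ligands. In the heart, inward rectifiers (the Kcnj genes) stabilise the resting potential or answer to acetylcholine and ATP, Kcnd channels carry the early transient outward current, and Kcnq1 and Kcnh2 carry the slow and rapid delayed rectifier currents. Kcne proteins cross the membrane once and modify the alpha subunits.

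The pore is what the alpha subunits share, so the stretch that codes for the selectivity filter is shown for 8 alpha subunits. Each run is 30 bases of the coding strand, read from GENCODE M21 transcripts (GRCm38), with the 3 codons of the glycine, tyrosine or phenylalanine, and glycine signature in capitals. One match to the signature was found in each of these 8, while Kcne3, with 103 residues, had none.
Kcnj2 (chr11:111072198-111072227, plus strand): acccagacaaccattGGCTATGGTttcagg
Kcnj3 (chr2:55437618-55437647, plus strand): accgaggccaccatcGGCTATGGCtaccgc
Kcnj5 (chr9:32322553-32322582, minus strand): acagaaacaaccattGGGTATGGCttcaga
Kcnj8 (chr6:142566442-142566471, minus strand): gttcaagtgaccattGGGTTTGGAgggaga
Kcnj11 (chr7:46099490-46099519, minus strand): gtccaggtgaccattGGTTTCGGCgggcgc
Kcnd2 (chromosome 6, plus strand, across an exon junction): accatgacaacactgGGGTATGGCgacatg
Kcnd3 (chromosome 3, plus strand, across an exon junction): accatgactacactgGGATATGGAgacatg
Kcnh2 (chr5:24325549-24325578, minus strand): agcctcaccagcgtgGGCTTTGGCaatgtc
The middle codon reads tyrosine in 5 of these genes and phenylalanine in Kcnj8, Kcnj11 and Kcnh2. Kcnd2 and Kcnd3 had 27 of the 30 bases in common, Kcnj8 and Kcnj11 had 23, and Kcnj3 and Kcnj5 had 21. Over the whole translated proteins, the same pairs were identical at 78.3%, 71.3% and 59.3% of aligned residues. The RNA levels of these 3 pairs are given below.

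Nr3c1, which encodes the glucocorticoid receptor, was measured at 46.2, 42.8 and 44.1 CPM in the GR-cKO libraries, against 68.2, 73.9 and 72.4 CPM in the control libraries. The log2 fold change of Nr3c1 was -0.69 ± 0.09 (SE; edgeR quasi-likelihood test, adjusted p = 3.3e-06). Reads come from transcript 3' ends, so the remaining counts do not show how much of the deleted part was left. CPM is the gene's count scaled to the library's gene counts with TMM factors, and depth was alike in both groups, at 19371508 to 22583596 gene counts per library. Sex-linked RNA also differed. Xist stood at 0 to 0.0996 CPM in GR-cKO and 271.5 to 293 CPM in control, and the Y-linked gene Ddx3y at 86.4 to 94.7 CPM in GR-cKO and 18.3 to 21.3 CPM in control. Each control library thus held both Xist and Y-linked RNA, so it held RNA of both sexes and of more than 1 animal. GR-cKO libraries held Y-linked RNA and almost no Xist. Whether the 3 libraries of a group came from 1 pool of cells is not given. Effects of sex and of genotype therefore cannot be told apart in these libraries. Summed over 12 cardiomyocyte markers, the level was 36490 to 37530 CPM in GR-cKO and 29320 to 30730 CPM in control, and all 12 markers were detected. At an edgeR adjusted p under 0.05, 9 of them rose and Pln fell (log2 fold change -0.33), while Tnni3 and Myh7 did not pass. Tnnt2, Actc1 and Myh6 make up most of the sum. Because the samples are bulk RNA, fewer cells of a type and less RNA per cell cannot be told apart.

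Over all 14386 tested genes, 14.8% were called at an edgeR adjusted p under 0.05, namely 7.63% as higher and 7.19% as lower. ERCC spike-in scaling gave 1355 higher and 522 lower genes, and TMM scaling gave 1097 and 1035. Of the 10 potassium channel subunits, 9 had enough counts to be tested and Kcnd3 did not. Kcne3 passed as higher, and Kcnj3 and Kcnj11 passed as lower. With ERCC scaling, Kcnj11 no longer passed, leaving 1 higher and 1 lower. GR-cKO and control libraries did not overlap for 5 of the 9, a state found in 29.9% of all tested genes. Since the choice of members used this contrast, nothing is read from these counts.

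**Figure D1:**
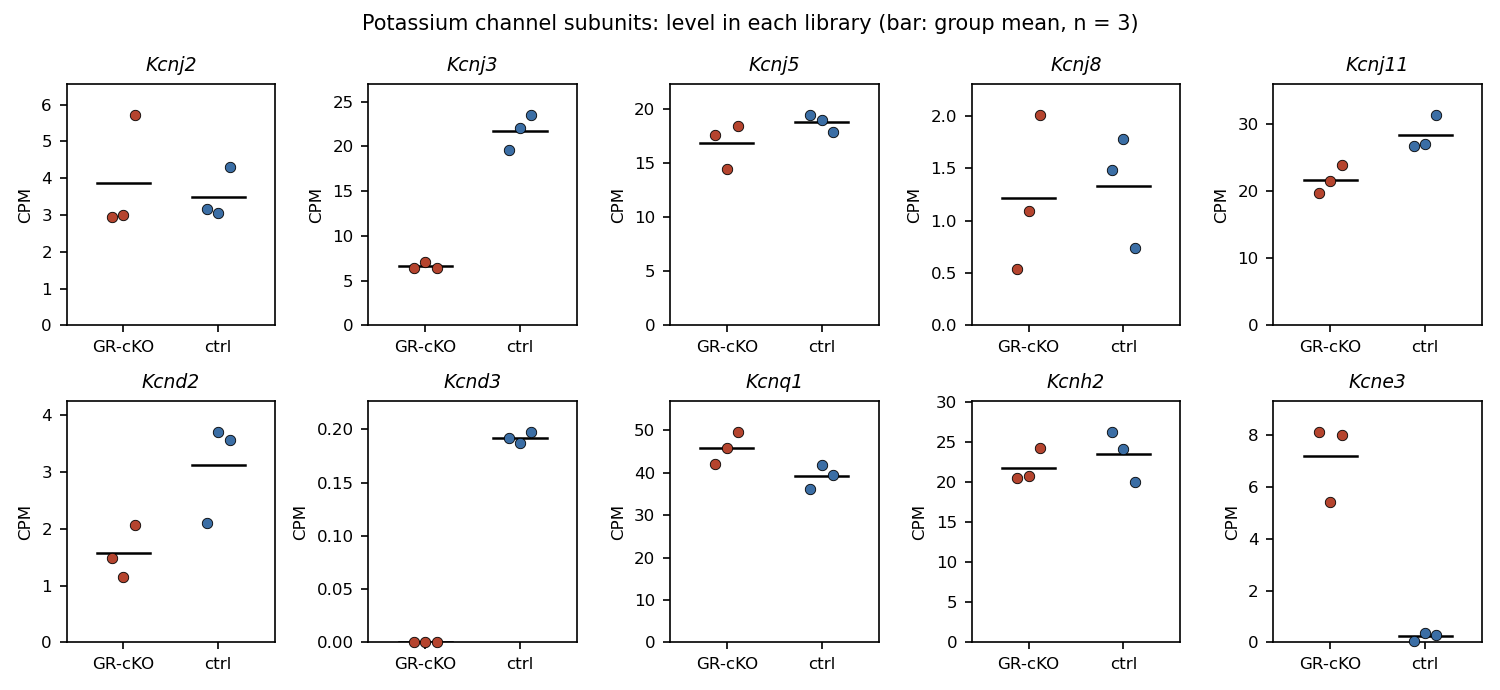
Level of each subunit in CPM (vertical axes, each from 0) in the 3 GR-cKO libraries (left, red) and the 3 control libraries (right, blue), with a bar at the group mean. Kcne3 lies at 5.43 to 8.13 CPM in GR-cKO and at most 0.375 CPM in control, Kcnj3 is lower in every GR-cKO library, and Kcnj2, Kcnj5, Kcnj8 and Kcnh2 overlap between the groups.

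The channel opened by acetylcholine is assembled in atrial and pacemaker cells from the products of Kcnj3 (GIRK1) and Kcnj5 (GIRK4). Its 2 subunit RNAs differed unequally between the genotypes. Kcnj3 (ENSMUSG00000026824, GRCm38 chromosome 2, 55435970 to 55598145, plus strand) was measured at 6.46, 7.12 and 6.44 CPM in GR-cKO libraries, against 19.6, 22.1 and 23.5 CPM in control libraries. All GR-cKO libraries lay below all control libraries, and the group means, 6.67 ± 0.39 and 21.7 ± 1.97 CPM (SD, n = 3 each), differed 3.26-fold, a log2 fold change of -1.70 ± 0.15 (SE). Kcnj5 (chromosome 9, 32314707 to 32344350, minus strand) stood at 17.6, 14.4 and 18.4 CPM in GR-cKO, against 19.4, 19.0 and 17.9 CPM in control. These groups overlapped, and its log2 fold change was -0.16 ± 0.14.

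The ratio of Kcnj3 to Kcnj5 counts within a library does not depend on scaling. It was 0.367, 0.495 and 0.350 in GR-cKO libraries and 1.01, 1.163 and 1.31 in control libraries. Control libraries thus held slightly more Kcnj3 than Kcnj5 tags, and every GR-cKO library held fewer Kcnj3 than Kcnj5 tags.

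Upstream of this channel, acetylcholine acts on the muscarinic receptor Chrm2 and adenosine on Adora1, whose G proteins release the beta-gamma subunits that open it, while RGS proteins end the signal. Of 11 genes listed for these steps, all were tested and 1 was called, with a median log2 fold change of 0.01 beside -0.01 over all genes. The gene called was Chrm2, which fell to 63.25, 50.1 and 55.0 CPM in GR-cKO, against 68.85, 73.3 and 76.45 CPM in control (log2 fold change -0.38 ± 0.09, edgeR adjusted p = 0.00653). This call ended with ERCC scaling (adjusted p = 0.13) and without GR-cKO replicate 2 (adjusted p = 0.0679). Adora1 averaged 48.4 ± 5.25 CPM in GR-cKO and 57.2 ± 3.28 CPM in control (SD, n = 3 each), and did not pass (edgeR adjusted p = 0.0996).

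Markers of atrial cells, which carry this channel, also differed. Of 10 atrial markers 4 fell and 1 rose, with a median log2 fold change of -0.39. Those that fell were Myl7 (atrial myosin light chain), Sln (sarcolipin), Tbx5 and Stard10, and Nppa (atrial natriuretic peptide) rose. Their summed level, which is mostly Nppa, was 20620 to 21770 CPM in GR-cKO and 17980 to 18120 CPM in control. Of 11 markers of nodal and conduction cells 3 fell (Cacna1g, Gja5 and Gjc1), and their sum was 188 to 198 CPM in GR-cKO and 242 to 243 CPM in control. The log2 fold change was -0.715 ± 0.06 for Myl7 and -0.32 ± 0.14 for the pacemaker channel Hcn4, which did not pass (edgeR adjusted p = 0.147). The part of cell make-up in the Kcnj3 values was not tested.

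ATP-sensitive channels, which open when ATP runs low, pair a Kir6 pore from Kcnj11 (Kir6.2) or Kcnj8 (Kir6.1) with a sulfonylurea receptor from Abcc8 (SUR1) or Abcc9 (SUR2). In mouse, Kcnj11 and Abcc8 lie 3.76 kb apart on the minus strand of chromosome 7, and Kcnj8 and Abcc9 lie 16.2 kb apart on the minus strand of chromosome 6, so each pore gene sits beside a receptor gene. The values of each pair are given in turn. Kcnj11 (ENSMUSG00000096146, 46093953 to 46100764) stood at 19.7, 21.6 and 23.9 CPM in GR-cKO, against 26.8, 27.1 and 31.4 CPM in control. The groups did not overlap, with a log2 fold change of -0.39 ± 0.12. Kcnj11 no longer passed with ERCC scaling or without GR-cKO replicate 1, GR-cKO replicate 2, control replicate 2 or control replicate 3. In these fits its log2 fold change was between -0.42 and -0.30. Nothing is read from its passing or not, since the choice of members used this contrast.

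Abcc8, the neighbour of Kcnj11, fell to 11.3, 11.0 and 13.6 CPM in GR-cKO, against 17.6, 16.3 and 18.8 CPM in control (log2 fold change -0.56 ± 0.15, edgeR adjusted p = 0.0112). Its adjusted p was 0.0573 with ERCC scaling, 0.0538 without GR-cKO replicate 1 and 0.0631 without GR-cKO replicate 2. The ratio of Kcnj11 to Abcc8 counts was 1.82 ± 0.13 in GR-cKO and 1.615 ± 0.09 in control (SD, n = 3 each). The control ratios ended at 1.67 and the GR-cKO ratios began at 1.74, so the groups lay just apart. The part of cell make-up, atrial cells included, in the Kcnj11 and Abcc8 values was not tested.

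Kcnj8, a pore of pericytes and smooth muscle as well as heart muscle, was scarce. It had 12, 22 and 39 counts in GR-cKO libraries and 31, 38 and 15 counts in control libraries. These equal 0.542, 1.10 and 2.01 CPM in GR-cKO, against 1.49, 1.78 and 0.741 CPM in control. The groups overlapped, and the log2 fold change of -0.15 ± 0.55 leaves its direction undetermined at this depth. Abcc9 was steady, at 20.9, 21.5 and 20.8 CPM in GR-cKO, against 20.5, 23.1 and 20.8 CPM in control. Within libraries, the ratio of Abcc8 to Abcc9 counts was 0.542, 0.510 and 0.654 in GR-cKO and 0.860, 0.706 and 0.903 in control, so the groups did not overlap. Of 10 tested mural cell markers 8 rose, and the list of 12 summed to 7117 to 7287 CPM in GR-cKO and 5105 to 5355 CPM in control. Acta2 (mean 3835 CPM in GR-cKO and 3294 CPM in control) and Des (2438 and 1242 CPM) make up most of this sum. The sum therefore follows Acta2 and Des and is not a measure of mural cell number. Vtn, of this list, was at 0 in all libraries. Tagln (log2 fold change -0.23) and Myh11 (-0.60), also of this list, did not pass. The part of mural cells in the Kcnj8 and Abcc9 values, and of atrial cells in the ratio of Abcc8 to Abcc9, was not tested.

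The classical inward rectifier, which sets the resting potential of ventricular cells, is built from Kir2 subunits. Kcnj2 (Kir2.1; ENSMUSG00000041695, chromosome 11, 111066164 to 111076821, plus strand) stood at 2.94, 2.99 and 5.72 CPM in GR-cKO, against 3.17, 3.05 and 4.297 CPM in control. The groups overlapped, 1 GR-cKO library was the highest of all, and the log2 fold change was 0.145 ± 0.32. Its partner Kcnj4 (Kir2.3) rose, to 10.2, 7.32 and 7.16 CPM in GR-cKO, against 3.07, 2.58 and 1.68 CPM in control (log2 fold change 1.75 ± 0.27, edgeR adjusted p = 4.2e-05). Kcnj12 (Kir2.2) averaged 4.95 ± 0.57 CPM in GR-cKO and 3.64 ± 1.90 CPM in control (SD, n = 3 each) and did not pass. Kcnj14 (Kir2.4) averaged 0.462 CPM in GR-cKO and 0.576 CPM in control. Of 8 ventricular markers Myl2 and Myl3 rose and Hey2, Hopx and Mpped2 fell, and the list summed to 15220 to 17310 CPM in GR-cKO and 11680 to 12730 CPM in control. The part of ventricular cells in these values was not tested.

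The counts of Kcnj4 relative to Kcnj2 were 3.46, 2.45 and 1.25 in GR-cKO libraries and 0.970, 0.846 and 0.391 in control libraries. All GR-cKO libraries held more Kcnj4 than Kcnj2 tags, and all control libraries held fewer.

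**Figure D2:**
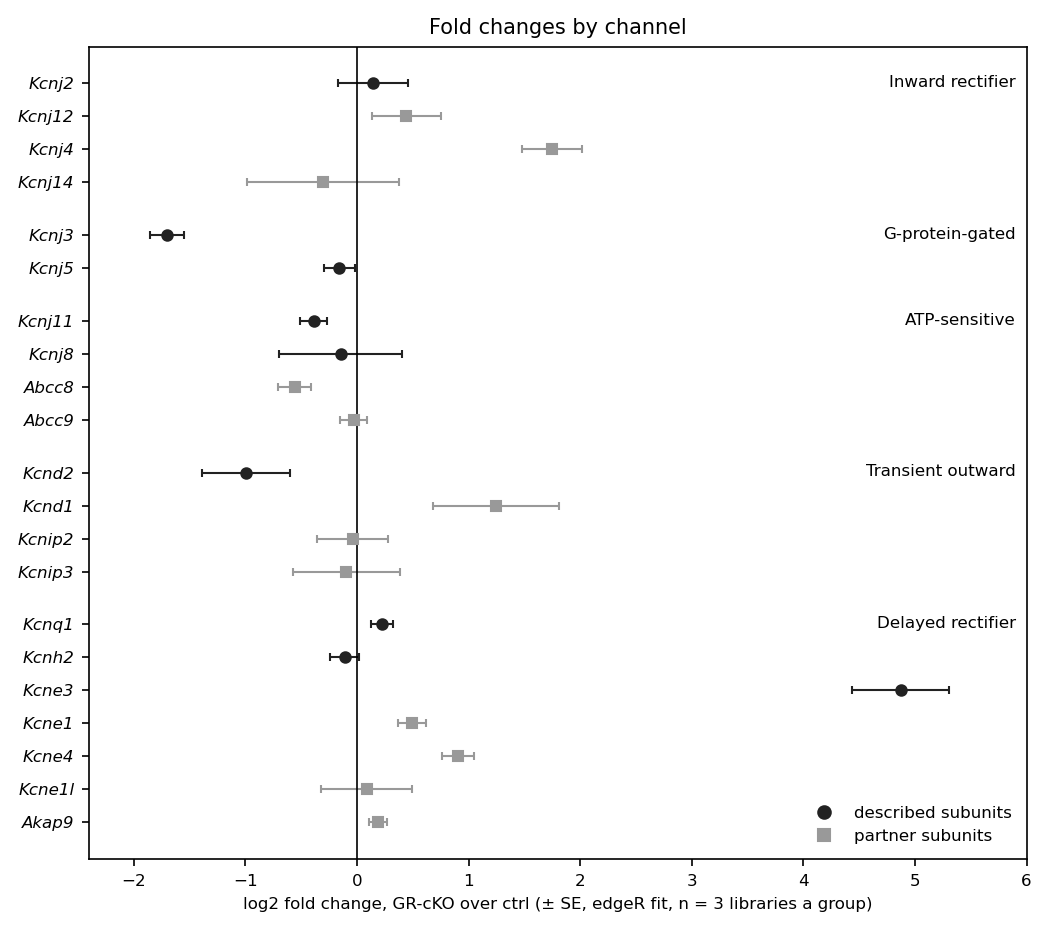
Log2 fold change of GR-cKO over control (horizontal axis) with its SE, from the edgeR fit of 3 libraries a group, for the 9 tested subunits (black circles) and 12 tested partner subunits (grey squares), grouped by channel. Kcnj4 lies at 1.75 and Kcnj2 at 0.145, and Kcnj3 lies at -1.70 and Kcnj5 at -0.16. The error bars of Kcnj11 (-0.39) and Abcc8 (-0.56) overlap.

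The transient outward current that begins repolarisation is carried by Kv4 channels of Kcnd2 (Kv4.2) and Kcnd3 (Kv4.3). Both had few counts. Kcnd2 (ENSMUSG00000060882, chromosome 6, 21215503 to 21729805, plus strand) had 33, 23 and 40 counts in GR-cKO libraries and 44, 79 and 72 counts in control libraries, or 1.49, 1.146 and 2.06 CPM in GR-cKO against 2.11, 3.70 and 3.56 CPM in control. The groups did not overlap, by a narrow margin between 2.06 CPM in GR-cKO and 2.11 CPM in control, and the log2 fold change was -0.995 ± 0.39. Kcnd3 (chromosome 3, 105452330 to 105674002, plus strand) had 0 counts in every GR-cKO library and 4 counts in every control library. A count of 0 allows 0.1355 to 0.1545 CPM in the GR-cKO libraries, taken as 3 counts per library, and the control mean was 0.192 CPM, so against the mean of these floors Kcnd3 was at least 1.31-fold lower in GR-cKO. These limits cover counting error in GR-cKO only and take the control mean as exact.

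Kv4 channels also contain KChIP proteins and dipeptidyl-peptidase-like proteins. Kcnip2, the KChIP of heart muscle, had 2.71, 3.39 and 2.73 CPM in GR-cKO, against 3.74, 2.77 and 2.57 CPM in control, and did not pass. Kcnip3 averaged 1.35 CPM in GR-cKO and 1.44 CPM in control. Kcnd1 (Kv4.1), which lies on the X chromosome, averaged 1.33 ± 0.27 CPM in GR-cKO and 0.560 ± 0.18 CPM in control (SD, n = 3 each). Its groups did not overlap, but it did not pass (edgeR adjusted p = 0.161).

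Dpp6, which speeds the gating of Kv4 channels, was too scarce for the filter. It had 29, 18 and 8 counts in GR-cKO libraries and 0, 0 and 1 in control libraries, a ratio of 55.7 with a 95% counting interval of 9.59 to 2241. In a fit of all 23721 genes with a count, its log2 fold change was 5.32 ± 1.29 (edgeR adjusted p = 0.00078). Kcnip1, Kcnip4 and Kcne2 had too few counts to be tested, and Kcnj6, Kcnj9 and Dpp10 had 0 counts in all 6 libraries.

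The delayed rectifiers Kcnq1 and Kcnh2 end the action potential. Kcnq1 (Kv7.1; ENSMUSG00000009545, chromosome 7, 143106362 to 143427042, plus strand) stood at 42.2, 45.9 and 49.6 CPM in GR-cKO, against 36.1, 41.9 and 39.5 CPM in control. The groups lay apart by a narrow margin, and the log2 fold change was 0.23 ± 0.10. Kcnh2 (ERG1; ENSMUSG00000038319, chromosome 5, 24319589 to 24351604, minus strand) stood at 20.5, 20.7 and 24.2 CPM in GR-cKO, against 26.2, 24.1 and 20.1 CPM in control. Its groups overlapped, with a log2 fold change of -0.11 ± 0.13.

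Kcnq1 shares its locus with Kcnq1ot1, a long noncoding RNA of the opposite strand that silences neighbouring imprinted genes on the paternal chromosome. Kcnq1ot1 (143203458 to 143296549, minus strand) averaged 20.7 ± 0.91 CPM in GR-cKO and 24.96 ± 2.94 CPM in control (SD, n = 3 each), and did not pass (edgeR adjusted p = 0.171). The strand setting of the authors' counting is not given in the sources used here, so reads of this overlapping pair may not be fully separated.

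Kcne3 had the largest fold change of the 9 tested subunits. It encodes a beta subunit known, in gut and airway epithelium, for holding Kcnq1 channels open. Kcne3 (ENSMUSG00000035165, chromosome 7, 100176502 to 100184869, plus strand) had 180, 109 and 156 counts in GR-cKO libraries and 1, 8 and 6 counts in control libraries. As levels these are 8.13, 5.43 and 8.035 CPM in GR-cKO, against 0.0480, 0.375 and 0.296 CPM in control. The groups did not overlap, and the means, 7.20 ± 1.53 and 0.240 ± 0.17 CPM (SD, n = 3 each), differed 30.03-fold (log2 fold change 4.87 ± 0.43). Summed counts, 445 in GR-cKO and 15 in control, give a 95% counting interval of 18.0 to 54.2 for this ratio, which covers counting error only. Leaving out 1 library at a time or changing the scaling, test, filter or prior count moved the log2 fold change between 4.395 and 5.35.

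Of 4 tested partners that modify Kcnq1, Kcne4 and Kcne1 rose, and Kcne1l and Akap9 did not pass. Kcne4, an inhibitory partner of Kcnq1 in expression systems, rose to 19.2, 19.7 and 22.15 CPM in GR-cKO, against 10.4, 12.04 and 10.1 CPM in control (log2 fold change 0.90 ± 0.145, edgeR adjusted p = 7.0e-05). Kcne1 (minK), which slows Kcnq1 gating to give the slow delayed rectifier, rose to 25.03, 27.2 and 29.7 CPM in GR-cKO, against 21.6, 16.45 and 20.15 CPM in control (log2 fold change 0.49 ± 0.13, adjusted p = 0.00989). The Kcne1 call ended without control replicate 2 (adjusted p = 0.0844). Kcne1l (Kcne5 in newer naming), on the X chromosome, averaged 2.29 CPM in GR-cKO and 2.16 CPM in control. Akap9, the scaffold yotiao that brings kinase to Kcnq1, averaged 119 ± 7.62 CPM in GR-cKO and 105 ± 9.66 CPM in control (SD, n = 3 each). Its edgeR adjusted p was 0.138. The end of Akap9 overlaps the gene Cyp51 on the opposite strand, so reads of these genes may not be fully separated.

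Set against the Kcnq1 count of the same library, Kcne3 counts came to 0.193, 0.118 and 0.162 in GR-cKO and to 0.00133, 0.00894 and 0.00750 in control. For Kcne4 the ratio was 0.454, 0.429 and 0.447 in GR-cKO and 0.288, 0.287 and 0.256 in control. In GR-cKO libraries Kcne3 was still scarcer than Kcne4 and Kcne1. Of 7 tested leukocyte markers 3 rose (Lyz2, Tyrobp and Cd52), and the list of 11 summed to 36.55 to 57.7 CPM in GR-cKO and 14.4 to 18.7 CPM in control. Lyz2 makes up most of this sum, and Cd68, Csf1r, Fcer1g and Cx3cr1 did not pass. Cd52 had 13, 11 and 49 counts in GR-cKO libraries and 5, 6 and 4 counts in control libraries. Of 10 epicardial markers 3 rose (Krt8, Krt19 and Msln, with log2 fold changes of 2.80, 2.29 and 1.13) and 4 fell (Upk3b, Tbx18, Lrrn4 and Sema3d), and their sum was 121 to 134 CPM in GR-cKO and 123 to 128 CPM in control. Of 12 endothelial markers 9 rose, among them Fabp4 (2.395), Vwf (1.501) and Kdr (1.43), and Emcn fell (-0.64), with a sum of 1691 to 1864 CPM in GR-cKO and 1463 to 1561 CPM in control. Of 12 fibroblast markers 6 rose, among them Postn (1.32) and the collagen gene Col1a1 (0.46), and Dcn fell (-0.365), with a sum of 5058 to 5212 CPM in GR-cKO and 3995 to 4186 CPM in control. Collagen genes make up most of the fibroblast sum. The part of these cells in the Kcne3, Kcne4 and Kcnj4 values was not tested.

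**Figure D3:**
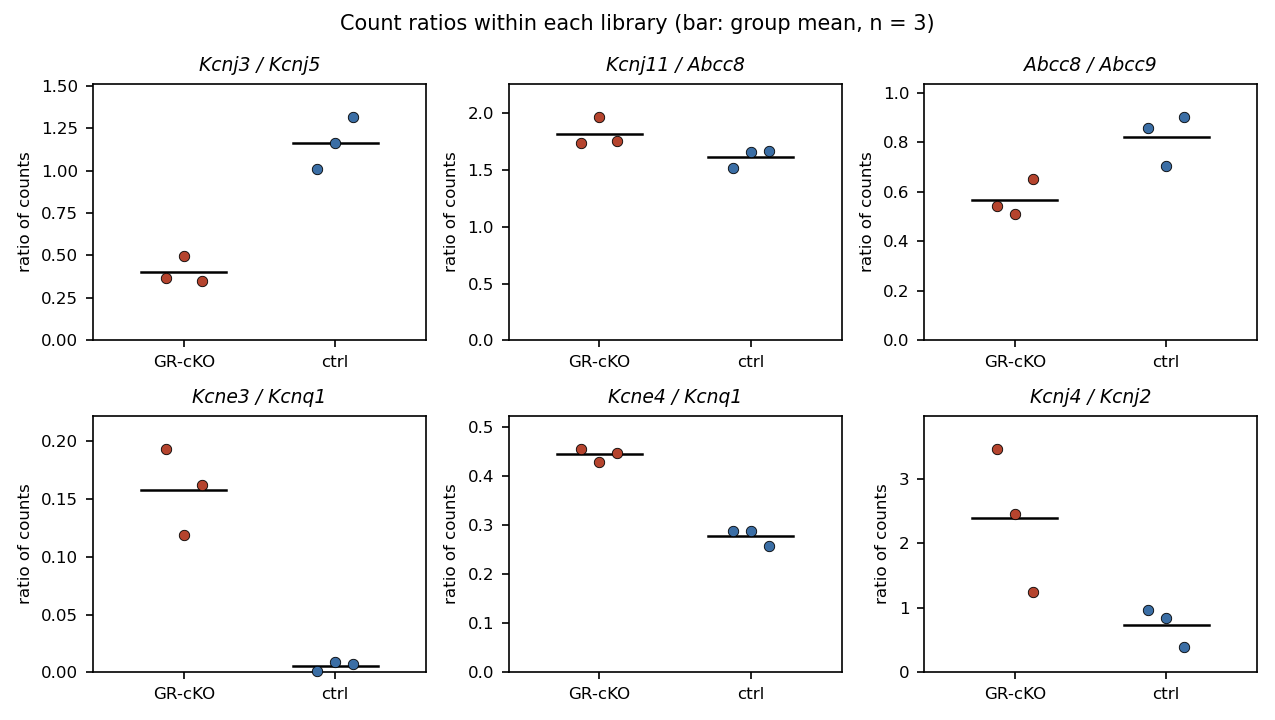
Ratio of the counts of 2 genes within each library (vertical axes, from 0) for GR-cKO (left, red) and control (right, blue), with bars at the group means of 3 libraries. Kcnj3 over Kcnj5 averages 0.404 in GR-cKO and 1.163 in control, and Kcne3 over Kcnq1 averages 0.158 in GR-cKO and 0.00592 in control. The pairs shown are among those whose groups did not overlap. Of the ratios computed but not drawn, those of Kcnq1 to Kcne1, Kcnj11 to Kcnj8 and Abcc9 to Kcnj8 overlapped between the groups. So did those of Kcnj2 to Kcnj12 and Kcnd2 to Kcnip2.

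In all, 12 of 19 partner subunits were tested. Of these, Kcnj4, Kcne1 and Kcne4 rose and Abcc8 fell, which is 33.3% beside 14.8% of all tested genes. The list was chosen with earlier results of these data known, so nothing is read from this share. Their median log2 fold change was 0.14, beside -0.01 over all genes. With ERCC scaling the 3 that rose were called and Abcc8 was not. Leaving out 1 library at a time gave between 3 and 6 called genes.

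The rest of the family comprised 70 protein-coding genes with a Kcn symbol, of which 25 were tested. Only Kcnj15 rose and only Kcnab1 fell in this fit, or 8.0% of the 25, beside 14.8% of all genes, and the median log2 fold change was 0.10. Kcnj15 (Kir4.2), an inward rectifier best known from epithelia, rose to 8.81, 9.76 and 7.83 CPM in GR-cKO, against 2.49, 1.73 and 4.54 CPM in control (log2 fold change 1.59 ± 0.28, edgeR adjusted p = 0.000225). Kcnab1, a cytoplasmic beta subunit of Kv1 channels, fell to 2.98, 5.08 and 2.58 CPM in GR-cKO, against 6.23, 5.11 and 9.33 CPM in control (log2 fold change -0.96 ± 0.29, adjusted p = 0.0248). The highest GR-cKO and the lowest control library lay close together, and the Kcnab1 call ended without GR-cKO replicate 1 (adjusted p = 0.109), GR-cKO replicate 3 (0.105) or control replicate 3 (0.18).

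**Figure D4:**
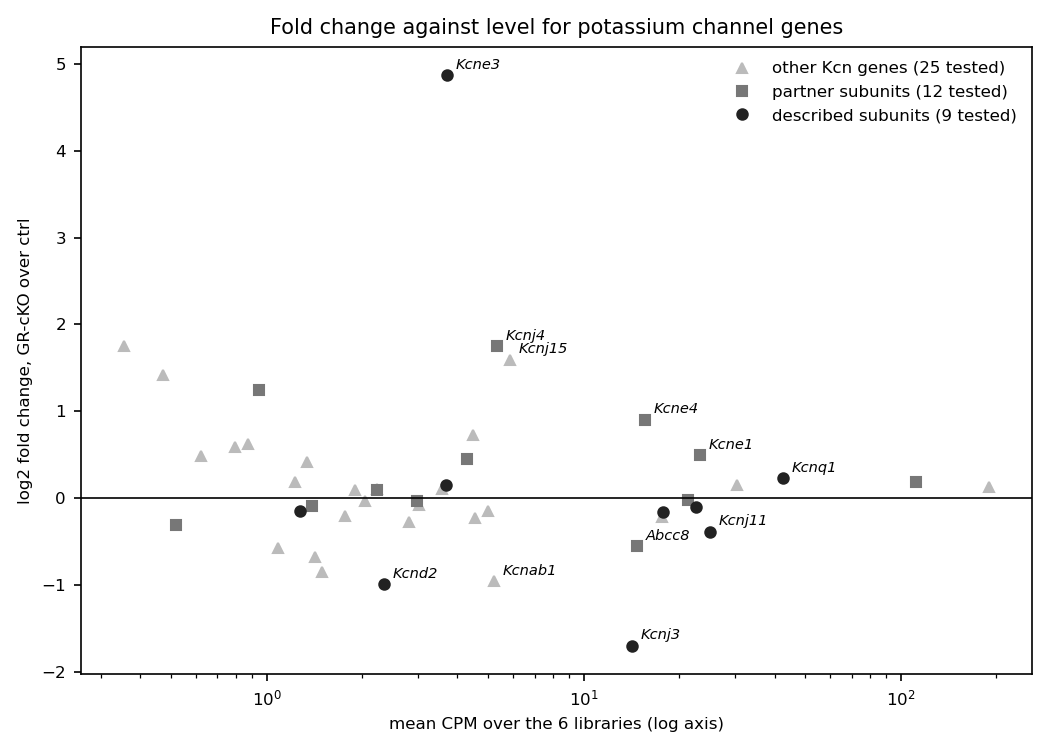
Log2 fold change of GR-cKO over control (vertical axis) against mean CPM over the 6 libraries (horizontal axis, log scale) for tested potassium channel genes, with the described subunits as black circles (9), partner subunits as grey squares (12) and other Kcn genes as light triangles (25). Kcne3 at 4.87 and Kcnj3 at -1.70 lie at the outer edges, and most other genes lie near 0.

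A 3' tag count does not grow with transcript length, so the order of these genes by CPM within a group is an order of tags and was not divided by length. In GR-cKO libraries the order of mean level was Kcnq1, Kcnh2, Kcnj11, Kcnj5, Kcne3, Kcnj3, Kcnj2, Kcnd2, Kcnj8 and Kcnd3. In control libraries it was Kcnq1, Kcnj11, Kcnh2, Kcnj3, Kcnj5, Kcnj2, Kcnd2, Kcnj8, Kcne3 and Kcnd3. Neighbours whose library ranges overlapped were Kcnh2 and Kcnj11, Kcne3 and Kcnj3, and Kcnd2 and Kcnj8 in GR-cKO, and Kcnh2 and Kcnj3, Kcnj2 and Kcnd2, and Kcne3 and Kcnd3 in control. Kcne3 thus stood in position 5 in GR-cKO and position 9 in control, and Kcnj3 in position 6 in GR-cKO and position 4 in control.

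The spread between replicates differed among the subunits. Kcnj3, Kcnj11, Kcnq1, Kcnh2 and Kcnj5, all above 6 CPM in both groups, had coefficients of variation of 5.83% to 12.6% in GR-cKO and 4.23% to 13.4% in control. Kcnj2, Kcnd2 and Kcnj8, with group means below 4 CPM, had 29.5% to 60.9% in GR-cKO and 19.7% to 40.1% in control. The SE of the log2 fold change was 0.32 to 0.55 in this second set and 0.10 to 0.15 in the first. Kcne3 had 21.3% in GR-cKO and 71.2% in control.

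Promoters were available for 8 of the 10 genes, as 9 RefSeq windows (GRCm38.p6) of 250 bases before a transcription start. The letters TGTTCT, one arm of the glucocorticoid receptor's recognition sequence, were searched on both strands and occurred in 0 of the 9, beside 16.1% of 32851 windows of all genes. The letters ACGTG, one form of the core recognised by hypoxia-inducible factors, occurred before 1 of 2 starts of Kcne3 and before Kcnj2, beside 16.6% of all windows. In Kcnj2 they overlap CACGTG, an E-box, which 6.0% of all windows contain. These matches describe the letters of these windows only.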

How the data were processed

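The authors deposited raw counts per gene for each library, without normalization. Per the submitters' processing notes, tools included cutadapt 1.16, STAR 2.5.4a and featureCounts 1.6.2 with build GRCm38, and per the labels' protocols 100 ng of RNA went into QuantSeq 3' libraries in forward orientation. No source used here gives the strand setting or the treatment of multimapped reads, so counts of close paralogues and overlapping genes are uncertain. Symbols came from GENCODE M21, which matched 52403 of 52550 identifiers. Spike-in rows (1.98% to 2.36% of counts) stayed out of library sizes and tests.

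GR-cKO was compared with control by edgeR 4.0.16 (R 4.3.3; quasi-likelihood test, TMM factors, default filter), with Benjamini-Hochberg adjustment over 14386 genes and a threshold of 0.05. Fold changes are log2, with the SE from the F statistic. Alternatives were RLE and ERCC scaling, DESeq2 1.42.0, other filters, a prior count of 2, no X and Y genes, 1 library left out, and a replicate block. Members, gene lists and tests were chosen with earlier results of these data known. Named genes were all members, all tested partners, and genes past the threshold among acetylcholine input and other Kcn genes. Untested partners, Adora1, single markers and Kcna1 were named after their values were seen. Proteins were aligned with Biopython 1.88 (BLOSUM62). The filter-coding stretch of 1 alpha subunit is not reported here.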

Additional observations from a re-analysis of the deposited data

How the results depend on the processing

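The log2 fold changes of the 9 tested subunits each moved by less than the spread between replicates (1 SD) under all 14 alternatives. Leaving out 1 library can hardly move a value further than this limit, which is widest for the noisiest genes. Staying within it therefore does not show that a value is stable. Kcnj3 stayed between -1.77 and -1.61 and Kcnd2 between -1.23 and -0.82, while Kcnj2 (-0.23 to 0.32) and Kcnj8 (-0.70 to 0.21) changed sign without being called. The number of called subunits was 3, or 2 where Kcnj11 was lost. Since the choice of members used this contrast, nothing is read from the calls of subunits under any setting. The fit with a replicate block called 2353 genes against 2132 without it, and the same 3 subunits. After removing group means, same-numbered libraries correlated at 0.00 to 0.04, and libraries with different numbers at -0.055 to 0.032. No pairing by number was seen, but with 3 libraries a group this check could miss a weak one. The replicate block ended no call among subunits and partners. Leaving out 1 library at a time gave 1572 to 1879 called genes, 2 to 3 subunits, 3 to 6 partners, 1 to 2 other Kcn genes and 0 to 2 acetylcholine input genes. ERCC scaling gave 0 of the last by edgeR, with 3 at an unadjusted p below 0.05, while DESeq2 called 1. The count of 0 without GR-cKO replicate 2 had 2 at an unadjusted p below 0.05. Among partners that were not called, ERCC scaling turned the sign of Abcc9 (log2 fold change 0.064) and Kcnip2 (0.057) and set Kcnip3 to 0.00. Leaving out 1 library turned signs within -0.062 to 0.026 for Abcc9, -0.15 to 0.14 for Kcnip2, -0.31 to 0.12 for Kcnip3 and -0.12 to 0.36 for Kcne1l. The cause was not tested. Depth limits Kcnd3, Kcnj8, Kcnd2, Dpp6 and Kcna1, whose libraries held under 80 counts each. Among tested partners this also holds for Kcnip2, Kcnip3, Kcnd1, Kcnj14 and Kcne1l. Kcne3 had only 1, 8 and 6 counts in the control libraries.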

Other observations

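Among 31 other Kcn genes that were tested only when every gene with a count entered the fit, 1 passed. Kcna1, an alpha subunit of Kv1 channels best known from nerve cells, had 0 counts in the 3 GR-cKO libraries and 9, 7 and 8 counts in the control libraries (edgeR adjusted p = 0.0376 in that fit). Its control mean was 0.385 CPM, so it was at least 2.63-fold lower in GR-cKO, with the floor of 3 counts per library. This limit covers counting error in GR-cKO only and takes the control mean as exact. Markers of neural and Schwann cells summed to 136 to 142 CPM in GR-cKO and 127 to 146 CPM in control, mostly from Ncam1. Of 5 tested members Gap43 fell (log2 fold change -1.20 ± 0.275, edgeR adjusted p = 0.00342), and Dbh (-0.55) did not pass (adjusted p = 0.0553). Their part in the Kcna1 values was not tested.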
